A study of Drosophila melanogaster with 382 samples.

Results

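The comparison followed Drosophila melanogaster embryos of the 2.4x bcd line from nuclear cycle 13 to cycle 14D, with 2 embryos at each stage. The embryos were found by their GEO labels, which name the line, the stage, the embryo and the slice, and together they gave 82 slices with values out of 88 cut. The whole series holds 25 embryos and 338 slices with values out of 382. Each embryo was frozen and cut along the anteroposterior axis, every slice became its own RNA-seq library, and the level of a gene in an embryo was taken as the mean over its slices of FPKM, the fragments per kilobase of transcript scaled to the mapped fragments of the library. The embryo, not the slice, was the replicate.

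The 2.4x bcd embryos came from mothers of a transgenic line that carries an eGFP-Bcd fusion, and the label gives bcd at 2.4 times the wild-type level at both stages. Their mothers were a few days old, and the embryos were kept at the same temperature as those of the other lines. In the bcd RNAi embryos, 2 at cycle 13 and 2 at cycle 14D, and the hb RNAi embryos, 1 at cycle 13 and 2 at cycle 14D, mothers carried maternal tubulin Gal4 driving a UAS short hairpin RNA in the germline, so the knockdown acts on the egg's own supply. Those mothers were aged for weeks before laying, which the mothers of the 2.4x bcd embryos were not, so maternal age and genotype cannot be told apart between lines. All 3 lines were fixed in methanol and prepared with the SMARTseq2 kit without carrier RNA. The study staged cycle 13 by nuclear density and cycle 14D by how far the cell membranes had grown inward. Wild type is represented by 1 embryo per stage, prepared with another kit.

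At cycle 13 the Drosophila embryo is a syncytium that still lives mostly on RNA loaded by the mother during oogenesis. During cycle 14 the nuclei are enclosed by membranes, maternal RNA is cleared and the zygotic genome is transcribed broadly, a handover called the maternal-to-zygotic transition. Bicoid is a homeodomain protein translated from maternal RNA held at the anterior pole, and its gradient switches on gap genes, which in turn position the pair-rule, segment polarity and Hox genes.

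The libraries were deep for single slices. From the steps between low FPKM values, the depth was estimated at a median of 2693531 fragments per slice, with a range from 506036 to 5622930, and at between 55043016 and 57547741 fragments summed over an embryo. At that depth 1 FPKM on a transcript of 1500 bases stands for 82.6 to 86.3 fragments summed over an embryo. These are sequenced fragments. The number of RNA molecules behind them was not measured, so they do not bound the sampling error. FPKM is a share of each library, and a lower value in a whole embryo can come from fewer cells that hold the RNA or from less RNA per cell, which bulk slices do not separate. The pole cell and germ plasm markers were present at both stages, with a summed level of 1505 to 1743 FPKM at cycle 13 and 217 to 341 FPKM at cycle 14D over 10 genes. Without slice 19, described below, the sum in embryo 2 of cycle 14D was 148 FPKM instead of 341 FPKM, under the 217 FPKM of embryo 1. Of 15 follicle cell markers, 14 were below 1 FPKM in both embryos at cycle 13 and 11 at cycle 14D, and all 8 muscle markers at cycle 13 and 7 at cycle 14D were below 1 FPKM. All 7 neuron markers were below 1 FPKM at cycle 13, and at cycle 14D only elav, an RNA-binding protein of neurons, was above it, at 21.9 and 7.64 FPKM. Of 7 hemocyte markers only the scavenger receptor crq was above 1 FPKM, with 91.7 and 103 FPKM in the embryos of cycle 13 and 11.2 and 10.4 FPKM in those of cycle 14D.

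Single slices stood apart within their embryos. Slice 8 of the cycle 14D embryo 1 had a correlation of 0.921 with its embryo's median slice. It held 126 genes that fell steeply at a median of 12.5% of their cycle 13 level, where its neighbours held 2.9% and 3.41%. These genes were picked for high values at cycle 13 and low values in both cycle 14D embryos. They were not limited to maternal RNAs. Slice 19 of the cycle 14D embryo 2, the most posterior slice with values in that embryo, had a correlation of 0.842 and held them at 17.2%. Slice 26 of the cycle 13 embryo 1, the posterior tip, had a correlation of 0.82. Slice 8 and slice 19 were each left out in turn. There were 1680 genes higher and 2497 lower without slice 8, and 1680 higher and 2519 lower without slice 19, against 1677 and 2492 with all slices.

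Between cycle 13 and cycle 14D most of the genes tested changed. Of 6875 genes with a mean of at least 1 FPKM over the 4 embryos, 1677 (24.4%) were higher at cycle 14D and 2492 (36.2%) were lower at a Benjamini-Hochberg adjusted p under 0.05, tested with limma on log2(FPKM + 1). Genes that fell were abundant at cycle 13, with a median of 55 FPKM and 40% of all FPKM, and they held 14% at cycle 14D. Genes that rose had a median of 6.04 FPKM at cycle 13 and 28.9 FPKM at cycle 14D, and their share of all FPKM went from 10.8% to 28.1%. At least a 4-fold change on the log2(FPKM + 1) scale was seen in 534 of the genes that rose and 979 of those that fell, and at least a 16-fold change in 98 and 105. A complete switch was rare. Below 1 FPKM in both cycle 13 embryos and at 10 FPKM or more in both cycle 14D embryos were 82 genes, and the reverse held for 31 genes.

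FPKM values are relative to the library total, and the split between rises and falls depended on the scale. When embryos were rescaled by the median ratio of their genes, the median change over all genes moved by 0.41, from -0.19 to 0.22 on the log2 scale, and 2482 genes were higher and 1909 lower, so that 56.5% of calls were rises instead of 40.2%. Changes below are given on the deposited scale and can be read against the median of -0.19. Counts of rises and falls in the gene lists can be read against the 24.4% and 36.2% over all genes.

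On the log2(FPKM + 1) scale the largest rise was that of HmgZ, which encodes a chromatin protein of the HMG box family and lies on chromosome arm 2R from 21697488 to 21707861 (release 6 of the genome). It stood at 1 and 0.809 FPKM in the cycle 13 embryos and at 252 and 355 FPKM in the cycle 14D embryos, a log2 change of 7.30 ± 0.28 (SE, adjusted p = 2.88e-07). The pair-rule zinc finger gene opa went from 0.281 and 0.216 FPKM to 90.7 and 97.2 FPKM, with a log2 change of 6.25 ± 0.24 (adjusted p = 2.88e-07). By the ratio of the means danr (399.8-fold) and opa (378-fold) rose more than HmgZ (335-fold). The paralogs danr and dan, nuclear proteins with a Pipsqueak domain that act in eye and antenna development, rose together. The level of danr was 0.324 and 0.494 FPKM at cycle 13 and 124 and 203 FPKM at cycle 14D, and that of dan 0.75 and 0.454 FPKM and then 86 and 137 FPKM. Because they are paralogs, reads may have been divided between them. The homeodomain cofactor hth rose from 0.736 and 1.07 FPKM to 179 and 134 FPKM. The cell surface immunoglobulin protein gene Ama rose from 1.07 and 3.04 FPKM to 239 and 304 FPKM. Among signalling genes, ci, the transcription factor of the Hedgehog pathway, rose from 0.448 and 0.25 FPKM to 66.3 and 84.7 FPKM, and gbb, a BMP ligand, from 0.571 and 0.97 FPKM to 86.7 and 110 FPKM. Atx-1, the fly ataxin 1 gene, and bnb complete the 10 largest rises, with log2 changes of 6.12 and 5.74. For bnb the cycle 13 embryos were already apart, at 2.24 and 11.7 FPKM.

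**Figure D1:**
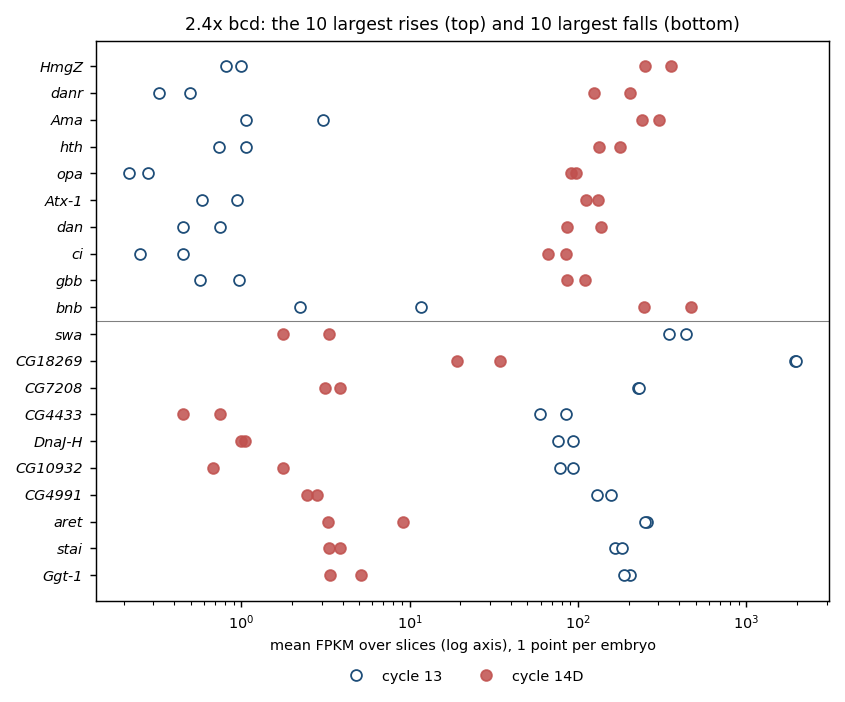
Mean FPKM over slices of each 2.4x bcd embryo (log axis), cycle 13 as open and cycle 14D as filled points, for the 10 largest rises and the 10 largest falls. These genes were chosen among those whose embryos did not overlap between the stages, which held for 82.9% of all genes tested. HmgZ reaches from 0.809 to 355 FPKM.

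The largest fall on that scale was that of swa, on chromosome X from 6363418 to 6365708. Its product is needed during oogenesis to hold bcd RNA at the anterior of the oocyte. The level of swa was 437 and 349 FPKM at cycle 13 and 3.31 and 1.78 FPKM at cycle 14D, a log2 change of -6.82 ± 0.30 (adjusted p = 6.18e-07) and 154.5-fold lower by the means. Along the axis swa RNA was even at cycle 13, with 441, 431 and 438 FPKM in the anterior, middle and posterior parts of embryo 1. The most abundant gene of this group was CG18269, with 1961 and 1977 FPKM in the embryos of cycle 13 and 34.4 and 19.1 FPKM in those of cycle 14D. Next to these, aret, whose RNA-binding product Bruno represses oskar translation in the oocyte, went from 256 and 251 FPKM to 3.27 and 9.18 FPKM. The microtubule regulator stai, the fly stathmin gene, went from 166 and 183 FPKM to 3.31 and 3.88 FPKM, and the chaperone gene DnaJ-H from 92.9 and 76.6 FPKM to 1 and 1.05 FPKM. The remaining 5 of the 10 largest falls, CG7208, CG4433, CG10932, CG4991 and Ggt-1, a gamma-glutamyl transpeptidase gene, had log2 changes between -5.68 and -5.25.

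The bcd gene itself, on chromosome arm 3R from 6755842 to 6759466, lost most of its RNA. Its level was 132 and 156 FPKM at cycle 13 and 11.3 and 4.21 FPKM at cycle 14D, 18.5-fold lower by the means, with a log2 change of -4.17 ± 0.41 (adjusted p = 1.41e-05). Reads of the endogenous gene and of the fusion transgene cannot be told apart in these values. At cycle 13 the bcd RNAi embryos held 6.31 and 9.72 FPKM of bcd and the hb RNAi embryo 33 FPKM. The fall in bcd was not shown to differ from that in bcd RNAi, where the gene started low (difference of the log2 changes -2.25, adjusted p = 0.13).

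Maternal RNAs for patterning fell as a group. Of 13 genes tested, 10 fell, none rose and 3 did not pass, with a median log2 change of -3.0 against -0.19 over all genes, and the same 10 were lower after rescaling, which also made stau and trk higher. The germ plasm organiser osk went from 136 and 100.1 FPKM to 3.92 and 3.96 FPKM. The posterior homeobox gene cad, whose maternal RNA fills the egg, went from 170 and 215 FPKM to 13.5 and 13.1 FPKM. Both embryos of each stage were close to each other for these genes. The 3 that did not pass were stau, pum and trk, and stau, which moves maternal RNAs along the cytoskeleton, stood at 21.8 and 32.1 FPKM at cycle 13 and 46.6 and 38.7 FPKM at cycle 14D. The translational repressor gene nos, also in this list, is described with the axis below.

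The maternal cell cycle and RNA clearance genes showed the same direction, with 17 of 21 lower, 1 higher and a median log2 change of -1.78. After rescaling, 14 were lower and 3 higher. Members of the PNG kinase complex, which drives the early nuclear divisions, were among the steepest, since gnu went from 467 and 659.8 FPKM to 17 and 15.5 FPKM and plu fell by 3.43 on the log2 scale. The meiotic Cdc25 phosphatase gene twe went from 222 and 278 FPKM to 12.6 and 9.27 FPKM. The maternal alpha tubulin alphaTub67C went from 130 and 158 FPKM to 5.16 and 15.3 FPKM. Members that did not pass were abundant at both stages, with pAbp, the poly(A) binding protein gene, at 2566 and 1971 FPKM and then 3124 and 2512 FPKM, and the mitotic kinase gene polo at 389 and 482 FPKM and then 510 and 714 FPKM. Both of these were called higher after rescaling, with log2 changes of 0.76 and 0.92. Of 10 genes of the Toll and Dorsal pathway, which sets the dorsoventral axis, 6 fell and 1 rose, against 36.2% and 24.4% over all genes. The median was -2.13, and after rescaling 5 were lower and 2 higher. The adaptor tub, the ligand spz and the kinase pll fell by 4.26, 3.41 and 2.70 on the log2 scale, and the transcription factor dl went from 9.89 and 8.73 FPKM to 0.434 and 0.929 FPKM. The protease gene ea and the serpin Spn27A did not pass on the deposited scale, at log2 changes of 0.24 and 0.43.

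The early zygotic genes, which are transcribed before the large wave of cycle 14, did not move in one direction. Of 22 genes, 10 rose, 7 fell and 5 did not pass, with a median of 1.18. Over all genes 24.4% rose and 36.2% fell. The genes that fell had been high at cycle 13. The level of nullo, which stabilises the furrow during cellularization, was 100 and 158 FPKM at cycle 13 and 7.86 and 1.57 FPKM at cycle 14D, and that of the BMP ligand gene scw 264 and 313 FPKM and then 20.2 and 7.14 FPKM. The proneural genes amos and sc fell by 4.66 and 4.20 on the log2 scale. At the other end E(spl)m5-HLH, a Notch target of the bHLH family, rose from 0.58 and 0.115 FPKM to 21.1 and 30.9 FPKM. Its cycle 13 values do not show it as transcribed early, although it is in this list. The mitotic inhibitor gene Z600 stood at 176 and 418 FPKM and then 1082 and 599.9 FPKM, with its embryos far apart within each stage, and did not pass (adjusted p = 0.0507). It was called higher after rescaling, at a log2 change of 2.01. Of 12 cellularization genes, 5 rose and 2 fell, with a median of 0.70, against 24.4% and 36.2% over all genes. The actin regulator gene Sry-alpha went from 51.5 and 72.7 FPKM to 416 and 336 FPKM, and zip, the myosin II heavy chain gene, from 7.49 and 9.63 FPKM to 74.9 and 35.5 FPKM. In contrast to these, bnk, which restrains the contraction of the furrow, had 488 and 854 FPKM and then 231 and 56.9 FPKM and did not pass.

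**Figure D2:**
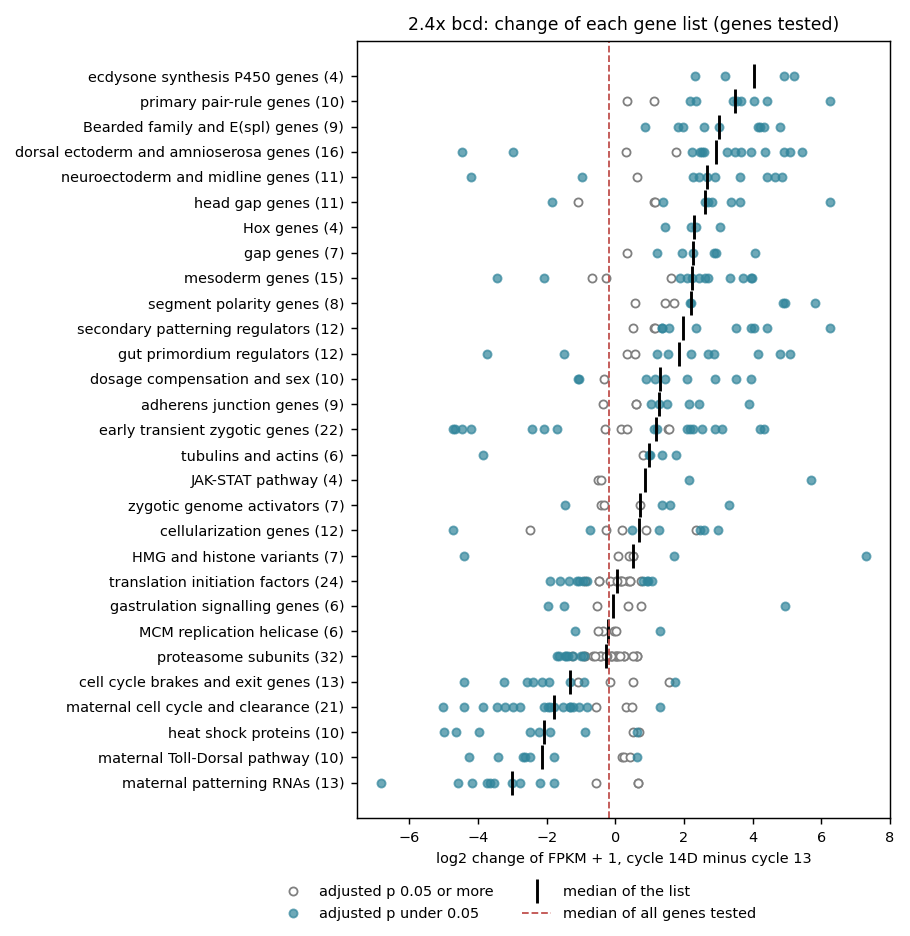
Log2 change of FPKM + 1 from cycle 13 to cycle 14D for each gene tested, in rows by gene list (number tested in brackets), filled where the adjusted p was under 0.05, with the list median as a bar and the median of all genes, -0.19, as a dashed line. Medians run from -3.0 for maternal patterning RNAs to 4.05 for the ecdysone synthesis genes.

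Most gap genes rose, and for none of them was the change shown to differ from that in bcd RNAi. Of 7 gap genes, 6 rose and the median log2 change was 2.25. The level of Kr, the gap gene of the central embryo, was 3.75 and 8.02 FPKM at cycle 13 and 63.4 and 38.6 FPKM at cycle 14D (log2 change 2.95 ± 0.47, adjusted p = 0.000342). The knirps paralog knrl rose from 0.25 and 0.386 FPKM to 36.5 and 11.8 FPKM, and kni from 8.87 and 16.3 FPKM to 96.5 and 38.6 FPKM. In embryo 1 of cycle 14D the first slice was the highest for knrl, at 111 FPKM, and embryo 2 has no values for its first slice. For kni the embryos within a stage were far apart, and its adjusted p was 0.0882 without embryo 1 of cycle 13 and 0.108 without embryo 1 of cycle 14D. The terminal gap gene hkb rose from 14.2 and 21.7 FPKM to 165 and 113 FPKM, with a log2 change of 2.89. Without the terminal slices its log2 change was 2.66 and did not pass (adjusted p = 0.101). The exception was hb, at 25.2 and 49.8 FPKM and then 42.5 and 48.4 FPKM, whose embryos overlapped (log2 change 0.35 ± 0.34, adjusted p = 0.401).

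Among the 11 head gap genes tested 7 rose and 1 fell, with a median of 2.61. The homeobox gene oc, which specifies the head, rose from 0.359 and 1.05 FPKM to 39.5 and 9.42 FPKM, and croc, a forkhead gene of the clypeolabrum, from 0.22 and 0.864 FPKM to 29.5 and 6.93 FPKM. In both cases embryo 1 of cycle 14D was the higher, by about the same factor. Embryo 2 has no values for its first slice, which in embryo 1 was the highest for croc, at 172 FPKM. For oc the highest slice of embryo 1 was slice 5, at 167 FPKM. The part of the missing slice in these levels was not tested. Without the terminal slices the log2 change of croc was 1.98 instead of 3.37 and did not pass (adjusted p = 0.129). The head and segmentation gene slp1 was at 9.91 and 18.3 FPKM and then at 24.4 and 38.2 FPKM and did not pass (log2 change 1.12 ± 0.45, adjusted p = 0.0524), and it was called higher after rescaling. Of the 10 genes in the primary pair-rule list 8 rose, with a median of 3.48. The other two are hb and slp1, and the list shares hb with the gap genes and slp1 and opa with the head gap genes. The level of prd went from 0.894 and 2.1 FPKM to 36.7 and 70.4 FPKM, that of odd from 0.657 and 1.74 FPKM to 31.6 and 36.7 FPKM, and that of ftz from 3.24 and 10.6 FPKM to 75.9 and 99.3 FPKM. All 3 encode transcription factors that act in stripes. Of 12 secondary patterning regulators, some of which are also in the other lists, 9 rose and none fell, with a median of 1.96, and the POU factor gene nub went from 0.182 and 0.019 FPKM to 14.1 and 18 FPKM.

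Segment polarity and Hox genes were near their floor at cycle 13. Of 8 segment polarity genes tested, 5 rose and none fell, and 5 more members of the list were too low to test. Beside ci, the Hedgehog receptor gene ptc rose from 0.541 and 1.39 FPKM to 80.2 and 41.3 FPKM and the Wnt antagonist nkd from 0.224 and 0.0452 FPKM to 35.8 and 29.1 FPKM. The Wnt ligand gene wg reached 6.67 and 3.43 FPKM. All 4 Hox genes tested, of 8 in the list, rose. They were Dfd (6 and 10.3 FPKM at cycle 14D), Antp (6.15 and 3.77 FPKM), Ubx (3.43 and 4.69 FPKM) and abd-A (2.42 and 2.93 FPKM), and none was above 0.366 FPKM in either cycle 13 embryo. All 4 are homeobox genes that give segments their identity. With the median over slices in place of the mean, Dfd, Ubx and abd-A did not pass in limma (adjusted p = 0.692, 0.288 and 0.522). A median over slices is low for any gene confined to a minority of the slices, so it cannot decide for narrow domains.

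The slices show where along the axis these changes took place. At cycle 13 bcd RNA formed a steep anterior gradient, with 343 and 444 FPKM in the anterior part, 18.6 and 18.3 FPKM in the middle and 7.86 and 4.87 FPKM in the posterior part of 3 equal parts. Its highest slice was the first in both embryos, at 1067 and 1391 FPKM. At cycle 14D the anterior part held 14.9 and 5.36 FPKM and the posterior part 6.35 and 3.93 FPKM, so that little of the gradient was left. The highest slice of embryo 1 was then slice 8, at 41.4 FPKM, the slice that stood apart, and without it the mean level of bcd in that embryo was 9.75 instead of 11.3 FPKM. The RNA of cad was found along the whole axis at cycle 13, with 147 and 179.5 FPKM in the anterior part and 189.8 and 265 FPKM in the posterior part. At cycle 14D cad was at 1.69 and 3.68 FPKM in the anterior part and at 27.6 and 28.2 FPKM in the posterior part. Its highest slice then lay at 82.5% of the axis in both embryos, at 61.1 and 50 FPKM. Maternal and zygotic RNA of cad cannot be told apart in these values.

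The level of hb did not pass the test, while its place along the axis was another at each stage. At cycle 13 the anterior part held 44.3 and 93.5 FPKM and the posterior part 4.33 and 5.53 FPKM. At cycle 14D the anterior part held 29.2 and 31.9 FPKM and the posterior part 61.8 and 92.5 FPKM, with highest slices of 130 and 206 FPKM in the posterior. The anterior share of hb was lower and the posterior share higher in both cycle 14D embryos than in both cycle 13 embryos. These parts were compared as values and not tested. For Kr the middle part went from 7.36 and 17 FPKM to 111 and 92.3 FPKM. The terminal gene tll, which specifies both ends of the embryo, was at 62.3 and 92.5 FPKM in the anterior part and 184 and 169 FPKM in the posterior part at cycle 13, and at 219 and 128 FPKM and 429 and 453 FPKM at cycle 14D, with 0.883 to 5.29 FPKM in the middle at either stage.

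Among genes that rose from near 0, some were even along the axis at cycle 14D and some were restricted. The 3 parts of embryo 1 held 267, 240.0 and 249 FPKM of HmgZ and 70.4, 61 and 66.8 FPKM of ci. At cycle 14D oc was at 108 and 24.9 FPKM in the anterior part and at 0.103 FPKM or less in the posterior part. The hindgut gene byn, a T-box factor, was at 69.9 and 68.4 FPKM in the posterior part and at 0.233 FPKM or less elsewhere. The forkhead gene fkh, which specifies the gut, was at 75 and 80 FPKM in the posterior part, and in embryo 1 it also had 22.6 FPKM in the anterior part, against 1.79 FPKM in embryo 2, in which the first slice has no values. The Hox genes were ordered along the axis. In embryo 2 the mean position of the RNA was 26.5% of the axis from the anterior end for Dfd, 49.3% for Antp, 54.6% for Ubx and 67.1% for abd-A, and in embryo 1 it was 41.9%, 67.7%, 69.2% and 73.6%.

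The 2 cycle 14D embryos differed in where these domains lay. Over 27 gap, head gap, pair-rule, segment polarity and Hox genes at 5 FPKM or more in both, the mean position was more posterior in embryo 1 for 20 genes and more anterior for 7, with a median difference of 4.65% of the axis. The highest slice of Kr lay at 62.5% in embryo 1 and 47.5% in embryo 2, that of Dfd at 42.5% and 27.5%, and that of btd, a head gap gene, at 32.5% and 17.5%. Set beside the wild-type cycle 14D embryo over 17 such genes, embryo 1 had 12 further posterior, with a median difference of 6.99%, and embryo 2 had 8, with a median difference of -0.613%. These are values alone, since wild type is 1 embryo of another kit, cut into fewer slices. The part of its exact age was not tested. Between the cycle 13 embryos 7 of 10 such genes lay further posterior in embryo 1, with a median difference of 2.43%. Embryo 2 of cycle 14D lacks values for 4 of its 20 slices, among them the first and the last, which moves its mean positions. RNAs spread nearly evenly along the axis were offset too, in examples picked after their values were seen. The mean position of Act5C was 51.7% in embryo 1 and 46.9% in embryo 2, and that of alphaTub84B 51.3% and 46.8%. The median differences of mean position that involve embryo 2, also against wild type, include this offset. How much of them it makes up was not tested.

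**Figure D3:**
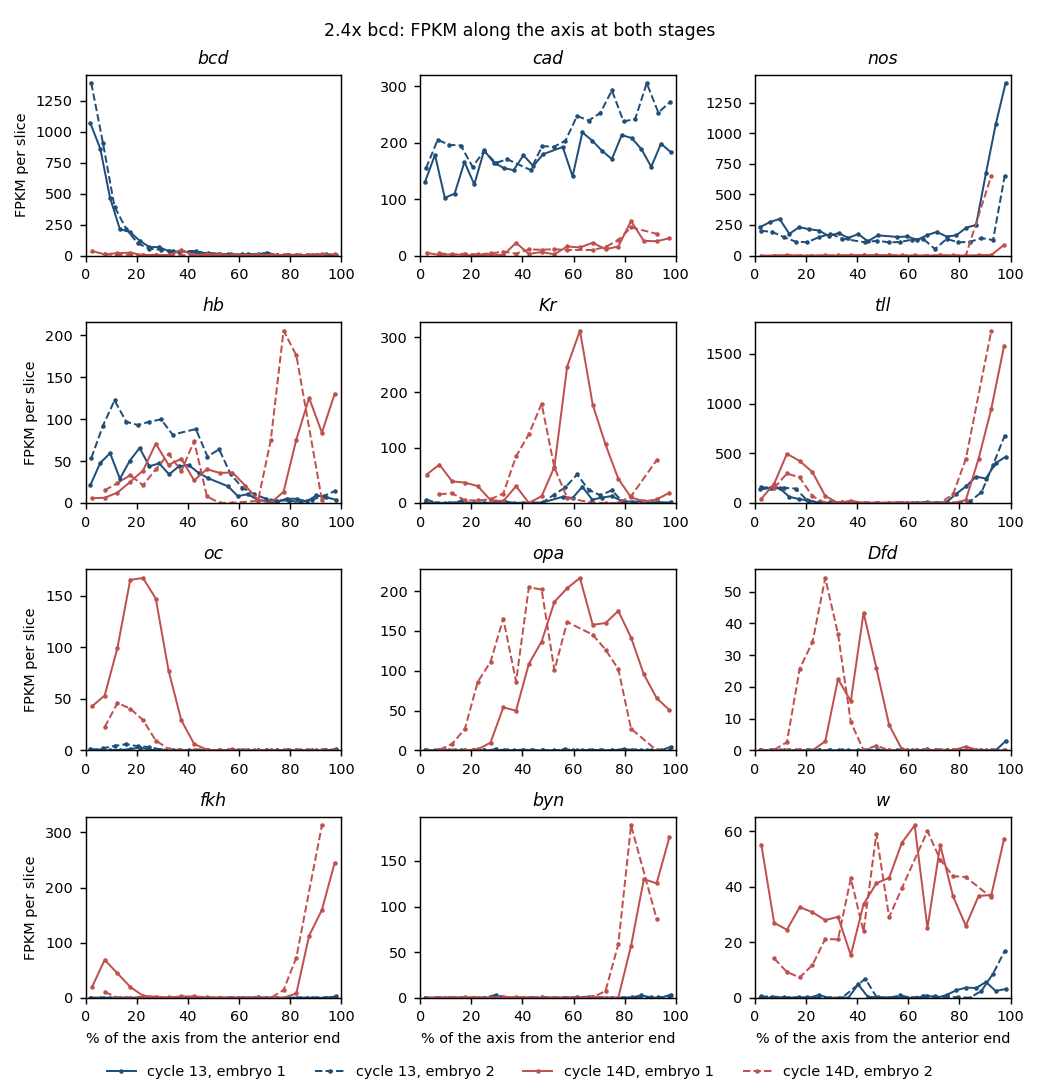
FPKM per slice against the position of the slice along the axis (% from the anterior end) for 12 genes, with cycle 13 in blue, cycle 14D in red, embryo 1 as solid and embryo 2 as dashed lines. The bcd gradient of cycle 13 reaches 1391 FPKM, the highest slice of cycle 14D holds 41.4 FPKM, hb and tll rise at the posterior, and Kr, opa and Dfd lie further posterior in embryo 1 than in embryo 2.

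The germ plasm RNA nos was highest at the posterior end at both stages. At cycle 13 nos, the translational repressor of the posterior pole, was found along the whole axis with 148 and 122 FPKM in the middle part, and its highest slice was the last, at 1409 and 651 FPKM. At cycle 14D the anterior and middle parts held 0.527 to 2.43 FPKM, while the last slice with values held 86.8 FPKM in embryo 1 and 653 FPKM in embryo 2. Its mean level was 293 and 156 FPKM at cycle 13 and 5.81 and 41.5 FPKM at cycle 14D (log2 change -3.66 ± 0.67, adjusted p = 0.000849). Without slice 19 the level in embryo 2 was 0.742 FPKM and the log2 change -5.96. The pole cell gene pgc, which blocks transcription in the germline, was at 1680 FPKM in slice 19 of embryo 2, and in embryo 1 it was at 292 FPKM in slice 20 and at 264 FPKM in slice 8, the slice that stood apart. Of the 10 pole cell and germ plasm markers 8 fell and none rose, against 36.2% and 24.4% over all genes.

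Genes of the germ layers and of the dorsoventral axis rose. The counts were 10 of 15 for the mesoderm, 12 of 16 for the dorsal ectoderm and amnioserosa and 8 of 11 for the neuroectoderm and midline, with 2 lower in each list and medians of 2.23, 2.92 and 2.68. In the mesoderm, stumps, an adaptor of the FGF receptor, rose from 0.112 and 0.0214 FPKM to 11.6 and 14.6 FPKM, and the guidance cue gene NetA from 1.06 and 1.32 FPKM to 45.8 and 25 FPKM. The lipid synthesis gene mdy, from the same list, fell by 3.45 on the log2 scale. In the dorsal ectoderm the T-box gene Doc3 rose from 1.25 and 1.24 FPKM to 79.4 and 115 FPKM and the TNF ligand gene egr from 0.362 and 1.08 FPKM to 57.3 and 42.8 FPKM. In the neuroectoderm sca, a secreted protein of neurogenesis, rose from 0.923 and 2.49 FPKM to 87.3 and 62 FPKM, SoxN, a Sox factor, from 0.287 and 0.764 FPKM to 45 and 30.8 FPKM, and the column gene ind from 0.246 and 0.433 FPKM to 19.3 and 39.4 FPKM. In each of these examples the stages did not overlap, which was also so for 82.9% of all genes tested. By contrast zen, the homeobox gene of the amnioserosa, had 41.2 and 71.1 FPKM and then 82.8 and 54.1 FPKM and did not pass.

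All 9 Bearded family and E(spl) genes tested rose, with a median of 3.01. Bearded proteins limit Notch signalling and E(spl) proteins are its nuclear targets. The level of Tom went from 27.9 and 32.3 FPKM to 459 and 666 FPKM, that of Ocho from 21.3 and 19.6 FPKM to 358 and 442 FPKM, and that of E(spl)m7-HLH from 6.1 and 5.32 FPKM to 158 and 222 FPKM. Of 12 gut primordium regulators 8 rose and 2 fell, with the GATA factor gene srp going from 0.468 and 0.232 FPKM to 53.1 and 38.2 FPKM. All 4 cytochrome P450 genes of ecdysone synthesis that could be tested rose, with the highest median of any list, 4.05. They were phm (0.259 and 0.952 FPKM, then 66.7 and 48.4 FPKM), dib (0.656 and 0.797 FPKM, then 46.3 and 56.6 FPKM), spo (10.5 and 10.8 FPKM, then 117 and 94.1 FPKM) and sad (1.61 and 2.6 FPKM, then 14.2 and 14.3 FPKM).

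Of 9 adherens junction genes 6 rose and none fell, with a median of 1.27, against 24.4% and 36.2% over all genes. The cell adhesion gene Nrt stood out in level, from 119.7 and 157 FPKM to 2337 and 1786 FPKM, and E-cadherin, encoded by shg, rose from 7.19 and 11.8 FPKM to 71.7 and 26.9 FPKM. The beta catenin gene arm rose from 91 and 102 FPKM to 293 and 256 FPKM. The Toll receptor genes 18w and Tollo, which are expressed in stripes and orient cell movements, rose from 0.41 FPKM or less to between 10.1 and 20.7 FPKM. Of 6 gastrulation signalling genes tested 1 rose and 2 fell, near the 24.4% and 36.2% over all genes, with a median of -0.08, and after rescaling 3 rose and 2 fell. The adaptor gene Traf4 rose from 0.406 and 0.57 FPKM to 42.5 and 46.4 FPKM, while fog, the ligand that drives apical constriction, went from 8.26 and 11 FPKM to 4.34 and 1.66 FPKM. The change in fog did not pass without embryo 2 of cycle 13 (adjusted p = 0.0717) or without embryo 2 of cycle 14D (adjusted p = 0.099). In the JAK-STAT pathway the receptor gene dome rose from 37.7 and 58.8 FPKM to 272 and 168 FPKM and the feedback inhibitor Socs36E from 0.566 and 0.816 FPKM to 96.5 and 76.7 FPKM, and Stat92E, their transcription factor, did not pass at a log2 change of -0.42.

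Regulators of the cell cycle mostly fell. Of 13 genes in the cell cycle brake and exit list, which holds activators as well as inhibitors of division, 8 fell and 1 rose. Over all genes 36.2% fell and 24.4% rose. The median of the list was -1.32, and after rescaling 7 were lower and 3 higher. The mitotic Cdc25 phosphatase gene stg went from 211 and 229.7 FPKM to 17.3 and 28.9 FPKM, the Chk1 kinase gene grp from 124 and 111 FPKM to 15.1 and 23.8 FPKM and the Cdk1 inhibitory kinase gene Myt1 from 20.1 and 28.8 FPKM to 3.46 and 4.04 FPKM. Of the 6 subunits of the MCM helicase, which unwinds DNA for replication, 4 did not pass, and Mcm7 rose and Mcm2 fell by 1.18 on the log2 scale. The call of Mcm2 was lost without embryo 1 of cycle 13, embryo 2 of cycle 13 or embryo 1 of cycle 14D, with adjusted p-values from 0.0547 to 0.0944.

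Chromatin and genome activation genes were divided. The embryonic linker histone gene BigH1 went from 715 and 835 FPKM to 40.7 and 31.2 FPKM while HmgZ rose, and His2Av, a histone variant, did not pass on the deposited scale at a log2 change of 0.41 and passed after rescaling at 0.85. The pioneer factor gene vfl, which encodes Zelda, was at 16.2 and 31.8 FPKM and then at 116 and 42.6 FPKM (log2 change 1.59 ± 0.48, adjusted p = 0.0142), a call that was lost without embryo 1 of cycle 13 (adjusted p = 0.131) or embryo 1 of cycle 14D (adjusted p = 0.148). The transcription factor genes grh and lola rose, and Clamp, which encodes a zinc finger protein that binds GA repeats, fell from 197 and 165 FPKM to 66.2 and 64.4 FPKM. Of 10 genes of dosage compensation and sex determination 7 rose and 2 fell, against 24.4% and 36.2% over all genes. The falls were lost after rescaling. The noncoding RNA roX1 rose from 11.6 and 18.4 FPKM to 486 and 117 FPKM, and msl-2, a limiting subunit of the complex that roX RNAs join, from 2.37 and 5.54 FPKM to 36.8 and 73.9 FPKM. The sex determination switch gene Sxl was at 4.42 and 4.27 FPKM and then at 124 and 11.6 FPKM, which are 3.32 log2 units apart within cycle 14D, and its adjusted p was 0.219 without embryo 1 of cycle 14D and 0.0808 and 0.0826 without either cycle 13 embryo. The X-linked counting gene sisA rose from 117 and 98.4 FPKM to 521 and 402 FPKM. The sex of each embryo is not in the labels, and its part in the values of these genes was not tested.

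Among housekeeping groups 7 of 10 heat shock proteins fell and 1 rose, against 36.2% and 24.4% over all genes. Their median was -2.07, and after rescaling 6 were lower and 2 higher. The small heat shock protein gene Hsp27 went from 562 and 707 FPKM to 12.9 and 27.6 FPKM, Hsp26 from 1048 and 1100.3 FPKM to 47.4 and 97.5 FPKM, and the mitochondrial chaperone gene Hsp60 from 395 and 293 FPKM to 9.23 and 17.5 FPKM. Of 32 proteasome subunits 8 fell and none rose, against 36.2% and 24.4% over all genes. Their median was -0.26, close to that of all genes. After rescaling, 9 were higher and 7 lower, so no direction is given for this group. Of 24 translation initiation factors 4 rose and 7 fell, against 24.4% and 36.2% over all genes, and after rescaling 11 rose and 3 fell. Of 6 tubulins and actins tested 4 rose, among them alphaTub84B from 381 and 515 FPKM to 1071 and 1197 FPKM, whose adjusted p rose to 0.0928 without embryo 1 of cycle 13 and 0.0689 without embryo 2 of cycle 14D, while the maternal alphaTub67C fell as described.

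The calls were also counted by chromosome. Of 1139 X-linked genes tested 19.1% rose and 42.3% fell, with a median log2 change of -0.53. On the arms 2L, 2R, 3L and 3R the share that rose was 24.7% to 25.7%, the share that fell 33.5% to 36.9% and the median -0.17 to -0.09. At cycle 13 the median level of the tested genes was alike, at 32.4 FPKM on X and 31.8 to 33.1 FPKM on these arms. The X-linked median was -0.42 in embryo 1 of cycle 14D and -0.68 in embryo 2, below every one of these arms in both. In bcd RNAi the X-linked median change was -0.47, and the arms lay between -0.12 and -0.05. In hb RNAi, with 1 embryo at cycle 13, it was 0.15, and the arms lay between 0.21 and 0.36. The difference between chromosomes was not tested. The labels do not give the sex of the embryos, so sex and stage cannot be told apart for X-linked genes.

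Another question was whether genes changed in another way in the 2.4x bcd line than in embryos with little bcd. The change from cycle 13 to cycle 14D differed from that in bcd RNAi for 31 of 6875 genes (0.451%), 22 with a more positive change in 2.4x bcd and 9 with a more negative one, by the difference of the log2 changes in limma. At an unadjusted p under 0.05 there were 977. The number depended on single embryos, with 2 genes without embryo 1 of cycle 13, 6 without embryo 2 of cycle 13 and 47 without embryo 2 of cycle 14D. Both RNAi lines and the 2.4x bcd line entered the same fit.

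Head and segment genes were among these 31. The Hox gene Dfd rose in 2.4x bcd and stood at 0.253 FPKM or less in all 4 bcd RNAi embryos (difference 2.82, adjusted p = 0.02). The head gap gene btd rose from 2.49 and 2.29 FPKM to 27.3 and 14.1 FPKM in 2.4x bcd and was at 0.188 FPKM or less in bcd RNAi (difference 2.74, adjusted p = 0.0362). For slp1 the difference went the other way, since it reached 146 and 54.5 FPKM in bcd RNAi from 0.855 and 1.49 FPKM (difference -4.27 ± 0.64, adjusted p = 0.0204), with adjusted p-values from 0.0506 to 0.236 in the alternatives that lost the call. The zinc finger gene drm, of the odd family, reached 23.7 and 12.6 FPKM in bcd RNAi and 1.42 and 1.82 FPKM in 2.4x bcd. Dfd, btd and drm were singled out after their values were seen, whereas slp1 is among the 6 largest differences.

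The remaining 5 of the 6 largest differences were of other kinds. Ogg1, a DNA repair glycosylase gene on chromosome X from 8690327 to 8691811, was nearly absent in the 2.4x bcd embryos of cycle 13, at 0.232 and 0.257 FPKM, and present at cycle 14D, at 31.2 and 21.7 FPKM. In the other lines it was present at both stages, with 41.2 and 43.4 FPKM at cycle 13 and 22.8 and 14.9 FPKM at cycle 14D in bcd RNAi, 41.5 FPKM and then 16.8 and 36.7 FPKM in hb RNAi, and 52.8 and 28 FPKM in wild type. The difference from bcd RNAi was 5.60 ± 0.53 (adjusted p = 0.00449). The white gene w, an eye pigment transporter gene that is also a common marker on transgenes, lies on chromosome X from 2790599 to 2796466. It rose from 1.18 and 1.85 FPKM to 37.7 and 32.1 FPKM in 2.4x bcd and was at 1.91 FPKM or less in every bcd RNAi, hb RNAi and wild-type embryo at these stages (difference from bcd RNAi 3.68 ± 0.37, adjusted p = 0.00473). Along the axis w was at 32.5, 42 and 39.2 FPKM in the 3 parts of embryo 1 and at 14.2, 39 and 46.7 FPKM in those of embryo 2. Whether the construct of the line carries this marker is not given in the sources used here. Ogg1 and w are the 2 of the 6 whose difference passed in each alternative tried.

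CG34283 on chromosome arm 3R reached 23.1 and 37.7 FPKM at cycle 14D in 2.4x bcd and at most 2.26 FPKM elsewhere, and yellow-e, also on 3R, 18.7 and 44.3 FPKM against at most 6.62 FPKM. Their adjusted p-values were 0.0321 and 0.039, and both calls were lost in several alternatives. CG7352 was at 16.6 and 13.2 FPKM and then 7.15 and 8.86 FPKM in 2.4x bcd and rose in bcd RNAi from 2.2 and 1.41 FPKM to 19.8 and 18 FPKM (difference -3.66, adjusted p = 0.0118). These genes differed between the lines at one stage or the other, and line, maternal age and genetic background cannot be told apart.

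**Figure D4:**
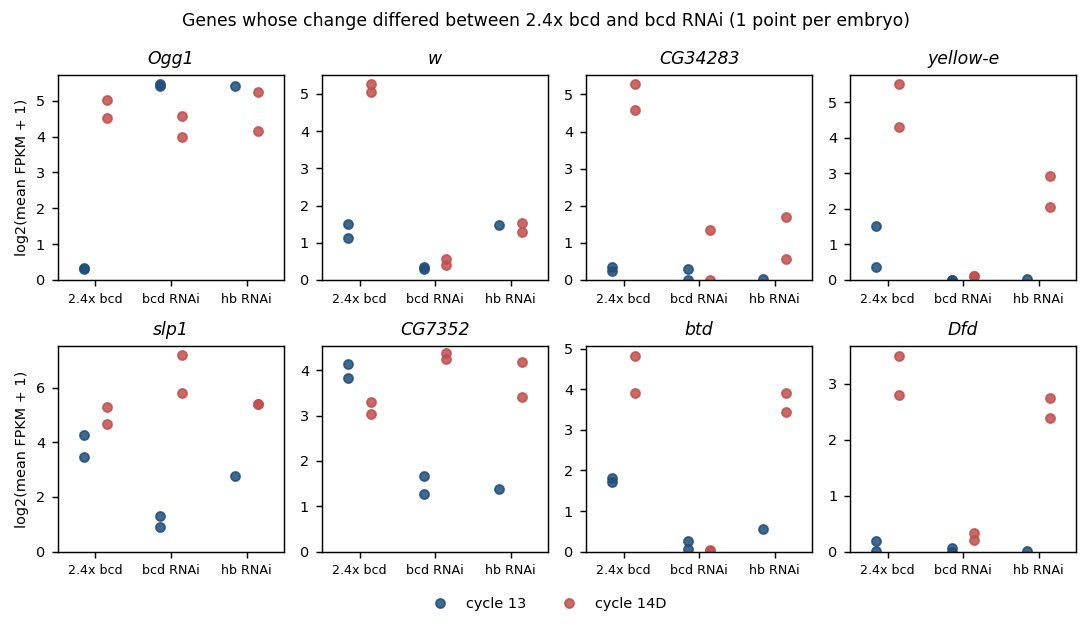
Log2(mean FPKM + 1) of each embryo in 2.4x bcd, bcd RNAi and hb RNAi, cycle 13 in blue and cycle 14D in red, for the 6 genes with the largest difference of change against bcd RNAi and for btd and Dfd. Ogg1 is near 0 at cycle 13 only in 2.4x bcd, at 0.232 and 0.257 FPKM, and w is raised only in the cycle 14D embryos of 2.4x bcd, at 37.7 and 32.1 FPKM.

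Against hb RNAi the change differed for 2954 of 6875 genes (43.0%). This comparison rests on a single hb RNAi embryo at cycle 13, which was assumed to vary like the others, and its values cannot be told apart from that embryo's own. The largest difference was that of dhd, the germline thioredoxin gene, at 135 and 177 FPKM and then 7.87 and 20.7 FPKM in 2.4x bcd, against 11753 FPKM in the hb RNAi embryo of cycle 13 and 64.4 and 2.38 FPKM at cycle 14D. The bcd RNAi embryos of cycle 13 held 804 and 1572 FPKM of dhd and the wild-type embryo 138 FPKM. The homeobox gene scro showed a pattern of its own, at 116 and 23.3 FPKM in the cycle 13 embryos of 2.4x bcd and at 2.12 and 3.74 FPKM at cycle 14D, and at 1.14 FPKM or less in each embryo of both RNAi lines and of wild type at these stages. It lay evenly along the axis, with 133, 111 and 104 FPKM in the 3 parts of embryo 1 at cycle 13. Ogg1, CG31156, DNaseII, a lysosomal nuclease gene, and CG17721 complete the 6 largest differences, and CG17721 was at 1.98 and 3.78 FPKM in 2.4x bcd at cycle 13 and between 20.3 and 103 FPKM in the other embryos of that stage.

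Embryos of the same stage were close. Over 4568 genes with a mean of at least 15 FPKM the median absolute log2 ratio was 0.19 between the cycle 13 embryos and 0.277 between the cycle 14D embryos, against 0.905 between the stage means. More than a 2-fold ratio between embryos was seen for 69 genes (1.51%) at cycle 13 and 177 genes (3.87%) at cycle 14D, and for 2110 genes (46.2%) between the stages. At cycle 13 the largest ratios were those of CG43221, scro, CG13217, bnb and CG8397, with scro at 116 and 23.3 FPKM. At cycle 14D they were those of CG6180, Sxl, nos, Elba3 and Tl. Of these CG6180 had 6.67 FPKM in embryo 1 and 93.9 FPKM in embryo 2, and Tl, the Toll receptor of the dorsoventral axis, 43.2 and 8.65 FPKM. The insulator gene Elba3 had 72.1 and 123 FPKM at the earlier stage and 50.8 and 8.65 FPKM at the later, and its fall did not pass without embryo 2 of cycle 14D (adjusted p = 0.329), without either cycle 13 embryo or after rescaling.

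Wild-type values stand beside these as values alone, since 1 embryo per stage and another kit allow no comparison. In wild type bcd was at 94.2 FPKM at cycle 13 and 72 FPKM at cycle 14D, swa at 129 and 23 FPKM, osk at 14.1 and 2.4 FPKM and gnu at 302 and 14.9 FPKM. The zygotic genes Kr and ftz were at 5.63 and 54.8 FPKM and at 0.38 and 20.6 FPKM, and hb at 26.8 and 150.4 FPKM. Some genes that changed in 2.4x bcd were near their cycle 13 level in the wild-type embryo labelled 14D, with HmgZ at 3.97 FPKM, Dfd at 0.0808 FPKM and nullo at 159 and then 228 FPKM. The part of the kit and of the exact age of that embryo in these values was not tested.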

How the data were processed

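Embryos were cut into slices along the anteroposterior axis and each slice was sequenced with SMARTseq2 (wild type with TruSeq and yeast carrier RNA). Reads were aligned by the authors to FlyBase release 6.03 with RNA-STAR 2.3.0.1, and they deposited FPKM values from Cufflinks 2.2.1, which are relative to each library's fragments. A second deposited table from kallisto 0.42 holds values that the authors' header calls FPKM but that sum like TPM, and it served as an alternative. The libraries do not mark strand, so overlapping and antisense genes cannot be told apart. Slices with too few fly reads or poor mapping had been removed by the authors.

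The FPKM of each gene was averaged over the slices of an embryo, 1 was added and the log2 taken. Genes with a mean of at least 1 FPKM over the 4 embryos were tested with limma 3.58.1 in R 4.3.3 (trended variance, Benjamini-Hochberg adjustment, threshold 0.05) in 1 fit over 11 SMARTseq2 embryos with 1 coefficient per line and stage. Differences between lines were contrasts of the same fit. The row without a gene name held at most 0.000198% of FPKM and was left out. Depth was estimated from the steps between low FPKM values, and simulated slices were recovered. The fit was tested on simulated data with 66 or 67 genes changed at each size, far fewer than were called here. It recovered 20.9% of genes changed by 1 log2 unit, 92.5% of those changed by 2 and 100% of those changed by 3. There were 10 false calls among 6875 genes. A gene that did not pass is therefore not shown to be unchanged.

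The text names bcd, the 10 largest rises and falls past the threshold whose embryos did not overlap, up to 4 called and 2 uncalled members of each gene list, the 6 genes that differed most from each RNAi line, and the 5 with the largest ratio between embryos of a stage. Others were singled out after their values were seen. Members and lists were chosen with earlier results of these data known. Gene positions come from the Ensembl annotation of BDGP6, in which 13449 of 13587 genes were matched. Ribosomal protein genes were not analysed here. Alternatives were the pseudocount, the filter, median-ratio scaling, kallisto values, the 4 embryos alone, a replicate block, other ways of averaging slices and leaving out each embryo. Leaving out slice 8 or slice 19 was chosen after seeing the data.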

Additional observations from a re-analysis of the deposited data

Results flagged for a closer look

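The change from cycle 13 to cycle 14D in 2.4x bcd differed from that in bcd RNAi in limma for the following 6 genes with the largest difference, given on the log2 scale. Ogg1 had a difference of 5.60, slp1 of -4.27, CG34283 of 4.11, yellow-e of 3.84, w of 3.68 and CG7352 of -3.66. The adjusted p-values were 0.00449, 0.0204, 0.0321, 0.039, 0.00473 and 0.0118, with 2 embryos per group.

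Against hb RNAi, with a single embryo at cycle 13, the 6 largest differences were 6.14 for dhd, 5.16 for Ogg1, -4.64 for CG31156, -4.60 for scro, -4.54 for DNaseII and 4.498 for CG17721. The germline thioredoxin gene dhd was at 11753 FPKM in the hb RNAi embryo of cycle 13, above all other embryos of these lines. No explanation was tested for these values.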

How the results depend on the processing

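The number of genes that rose or fell stayed within 1.5 times of 1677 and 2492 in every alternative run, with 1227 to 1413 rises and 2014 to 2165 falls when 1 embryo was left out. The number whose change differed from bcd RNAi did not, since 31 became 85 with a pseudocount of 5 FPKM, 13 with no filter on low values, 60 with median-ratio scaling and 2 to 47 when 1 embryo was left out. The cause was not tested. Same-numbered embryos did not deviate together (correlation -0.03 over 6875 genes), and a replicate block gave 1660 rises, 2461 falls and 26 genes that differed from bcd RNAi. Of 177 named genes 130 were called and 108 kept the call in each of 17 alternatives. The median over slices lost 12 calls, those of hkb, kni, oc, croc, ems, Dfd, Ubx, abd-A, fkh, byn, CG43221 and Elba3. Such a median is low for any gene confined to a minority of the slices, so it cannot decide for those of narrow domains. With 2 embryos per stage, small changes cannot be told from the spread between embryos.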
